A study of Homo sapiens with 6 samples.

Results

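Oxidative phosphorylation is the last stage of respiration, in which 5 protein complexes in the inner mitochondrial membrane pass electrons to oxygen and use the resulting proton gradient to make ATP. The genes examined here are the nuclear-encoded subunits of these complexes, chosen by gene name from the deposited expression table: the NDUFA, NDUFB, NDUFC, NDUFS and NDUFV genes, SDHA to SDHD, the UQCR genes and CYC1, the COX4 to COX8 genes and the ATP5 genes. Of 24294 loci in the table, 91 carried such a name, and 84 had a mean of at least 1 FPKM (fragments counted in a gene, scaled to its length and to the size of the library) and were analysed. Of these 84 loci, 79 were assigned to a complex, COX7A2L, a supercomplex assembly factor, among them, and 5 share a name with the family but encode no subunit.

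The cells were MCF12A, a line the labels call a breast cancer line although MCF12A is generally described as non-tumorigenic immortalized mammary epithelium. One group stably over-expressed miR-424, a microRNA of the miR-15/16 seed family (3 libraries). The other stably carried an empty vector, EV (3 libraries). Both were grown for 48 hours before RNA was taken, and mRNA libraries were sequenced. The labels say that cells were grown in triplicate but not whether each replicate was an independent infection or clone, so the p-values measure the spread between these libraries, which may be technical.

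The locus that contains the miR-424 precursor, MGC16121/MIR424, had 106.6, 106.3 and 223.6 FPKM in miR-424 cells, against 0.989, 1.27 and 1.23 FPKM in EV cells. All miR-424 libraries were above all EV libraries, and replicate 3 was the highest; the log2 change was 5.99 ± 0.28 (SE; adjusted p = 0.000668 by limma with Benjamini-Hochberg). Of 10 mammary epithelial markers, 7 reached 1 FPKM, among them the luminal keratin KRT8 (mean 162.0 FPKM), while the adherens junction gene CDH1 averaged 0.0206 FPKM. The basal keratins KRT5 and KRT14 moved in opposite directions. KRT17 did not pass (log2 change 0.12 ± 0.09, SE, adjusted p = 0.504 by limma with Benjamini-Hochberg). KRT5 fell, to 40.7 ± 3.22 FPKM in miR-424 cells, against 63.7 ± 2.27 FPKM in EV cells (SD, n = 3 each; adjusted p = 0.00415 by limma with Benjamini-Hochberg). KRT14 rose, to 4.36 ± 0.799 FPKM in miR-424 cells, against 2.25 ± 0.241 FPKM in EV cells (SD, n = 3 each; adjusted p = 0.0165 by limma with Benjamini-Hochberg). The epithelial list summed to 327.6 to 350.9 FPKM in miR-424 libraries and 353.9 to 369.3 FPKM in EV libraries. Of 7 fibroblast-associated genes, only DCN (125.1 FPKM) and COL1A1 (42.1 FPKM) reached 1 FPKM. COL3A1 (0.590 FPKM), PDGFRB (0.201), LUM (0.117), PDGFRA (0.0176) and COL1A2 (0.0115) did not. COL1A1 rose, with a log2 change of 0.21 ± 0.05 (SE; adjusted p = 0.0456 by limma with Benjamini-Hochberg). The KRT14 call was lost without EV replicate 1, 2 or 3 or miR-424 replicate 1, and the COL1A1 call without any of these or miR-424 replicate 2. The COL1A1 call was also lost with no filter on low values, a constant prior variance or a replicate block. Summed leukocyte markers were 1.49 to 1.84 FPKM in miR-424 libraries and 1.78 to 2.02 FPKM in EV libraries. The fibroblast list summed to 164.3 to 185.6 FPKM in miR-424 libraries and 156.4 to 166.4 FPKM in EV libraries. The part of these markers in the results was not tested.

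Complex I (the NDUF genes) takes electrons from NADH and complex II (SDHA to SDHD) from succinate. Complex III (the UQCR genes and CYC1) hands electrons to cytochrome c, and complex IV (the COX genes) gives them to oxygen. Complex V (the ATP5 genes) is the ATP synthase, whose membrane ring of c subunits turns as protons pass. A small set of subunits is encoded in mitochondrial DNA and is not analysed here. Nuclear promoters of this family are known for sites of NRF1, of GABP (an ETS factor also called NRF2) and of YY1.

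A microRNA pairs through its seed with matching sites that lie mostly in 3′ untranslated regions (UTRs), so the mature sequence is shown with the 4 sites found in unambiguous subunit loci. Capitals mark the seed (bases 2 to 8) in the microRNA and its match in the sites, which in ATP5G3 extends by an A opposite the first base. The mature sequence is from RefSeq (GRCh38.p14, chrX:134546680-134546701, minus strand), and the sites are from GENCODE 29 transcripts on GRCh38, with the coordinates of the capitals.
hsa-miR-424-5p: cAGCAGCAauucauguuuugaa
ATP5G3 (chr2:175177476-175177483, minus strand): ggttcaacagtatttTGCTGCTA
NDUFS1 (chr2:206120629-206120635, minus strand): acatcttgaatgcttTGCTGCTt
SDHC (chr1:161363680-161363686, plus strand): tttaatgagaaaactTGCTGCTt
ATP5A1 (chr18:46082850-46082856, minus strand): tcaccatgttggccaTGCTGCTc

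The 7-base match TGCTGCT was found in the longest annotated 3′ UTR of 6 of the 81 loci with a UTR (7.41%), against 2514 of 10487 tested loci with one (24.0%). The other loci with a match were ATP5S, counted among the loci that encode no subunit, and the merged locus ATP5E/SLMO2, whose long annotated UTR may be shared with SLMO2. The 8-base match TGCTGCTA was found in ATP5G3 only among these 81, or 1.23%, against 4.51% of tested loci. The UTRs of the family were short, with a median of 223 nucleotides, against 1244 nucleotides over all tested loci with a UTR. The longest annotated UTRs of SDHC (12907 nucleotides), NDUFS1 (9368) and ATP5A1 (4034) were far longer than these medians. Whether the cells express isoforms that carry the sites was not tested. These are matches of letters on the sense strand and show no binding. The 4 unambiguous loci with a match had log2 changes of -0.00 ± 0.09 (ATP5G3), -0.07 ± 0.04 (NDUFS1), 0.02 ± 0.04 (SDHC) and 0.01 ± 0.05 (ATP5A1) (SE), none of which passed the test described next.

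Each locus was tested with limma on log2(FPKM + 1), across the 11574 loci that averaged 1 FPKM or more, with Benjamini-Hochberg adjustment over all of them and a threshold of 0.05. Of the 84 loci, 1 fell in miR-424 cells (1.19%), against 6.32% of all tested loci called lower, and 0 rose, against 1.24% called higher and 7.56% called either way. At an unadjusted p under 0.05, 9 of the 84 were lower (19.3% of all tested loci were) and 1 was higher (4.29% of all tested loci were). The median log2 change of the 84 was -0.03, beside -0.05 over all tested loci, and the changes ran from -0.29 to 0.17. Of the 84 estimates 54 were below 0, beside 7900 of the 11574 over all tested loci. The sign of the median depends on scaling: quantile normalization made it 0.01 and median-of-ratios scaling 0.04, beside 0.01 over all tested loci under each. In bulk RNA, fewer cells that express a gene and less of its RNA per cell cannot be told apart.

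The intervals were narrow. The 95% confidence interval of the change lay within 1.25-fold in either direction for 74 of the 84 loci and within 1.5-fold for 83 of them, on the log2(FPKM + 1) scale; the exception was NDUFB5. Among all 11574 loci, 8722 and 11176 had intervals this narrow. All 3 miR-424 libraries lay below all 3 EV libraries for 18 loci (26.9% of all tested loci did so), and above them for 2 (6.59% of all tested loci), NDUFB10 and ATP5F1. The 84 loci took 2.34% ± 0.10 of all FPKM in miR-424 libraries and 2.33% ± 0.02 in EV libraries (SD, n = 3 each).

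**Figure D1:**
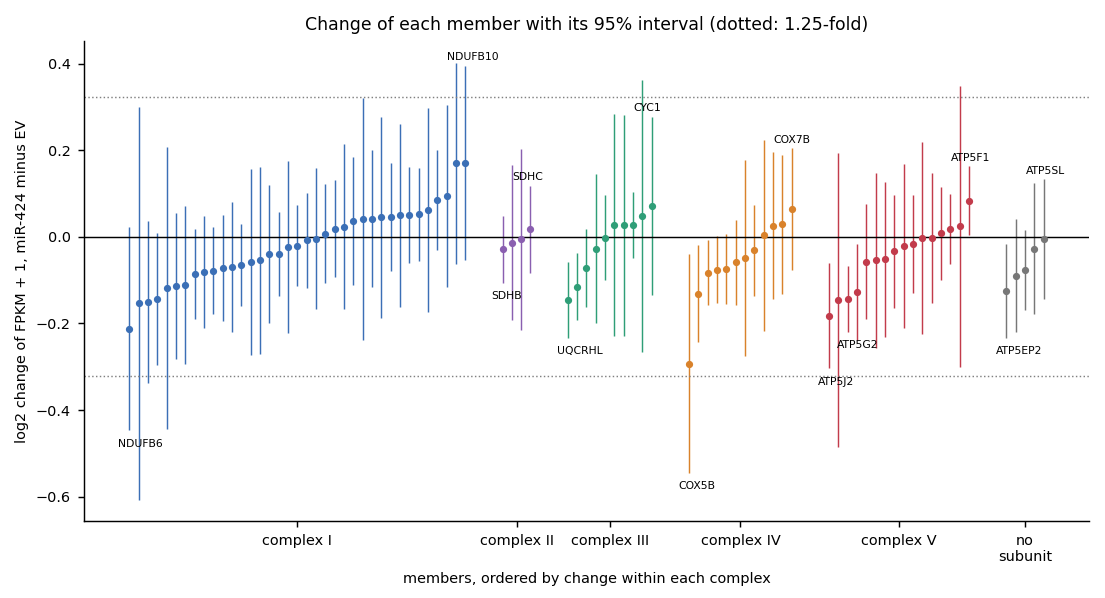
Log2 change of FPKM + 1 (miR-424 minus EV, vertical axis) of the 84 loci ordered within each complex; points are limma estimates, bars 95% confidence intervals and dotted lines a 1.25-fold change. The intervals of 74 loci include 0, and those of 74 stay between the dotted lines; COX5B (-0.29) is the lowest estimate and NDUFB10 (0.17) the highest.

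As a family these genes were highly expressed. Their median level was 79.4 FPKM, against 10.4 FPKM over all tested loci, and 81 of 84 lay above that overall median, 53 above its 90th percentile. FPKM is scaled by length, so levels of different genes can be compared, but only roughly. The medians below include merged rows, such as ATP5E/SLMO2, and copies that may share reads, such as UQCRH and UQCRHL. The median level was 58.9 FPKM for the 37 loci of complex I, 82.9 FPKM for the 4 of complex II and 77.2 FPKM for the 10 of complex III. It was 161.7 FPKM for the 12 loci of complex IV and 138.4 FPKM for the 16 of complex V. The highest single level was that of ATP5B, the catalytic beta subunit of the ATP synthase, at 774.0 FPKM. The median log2 changes of the complexes were -0.02 (I), -0.01 (II), 0.01 (III), -0.05 (IV) and -0.03 (V). With median-of-ratios scaling all of them were above 0, from 0.01 (IV) to 0.08 (III).

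**Figure D2:**
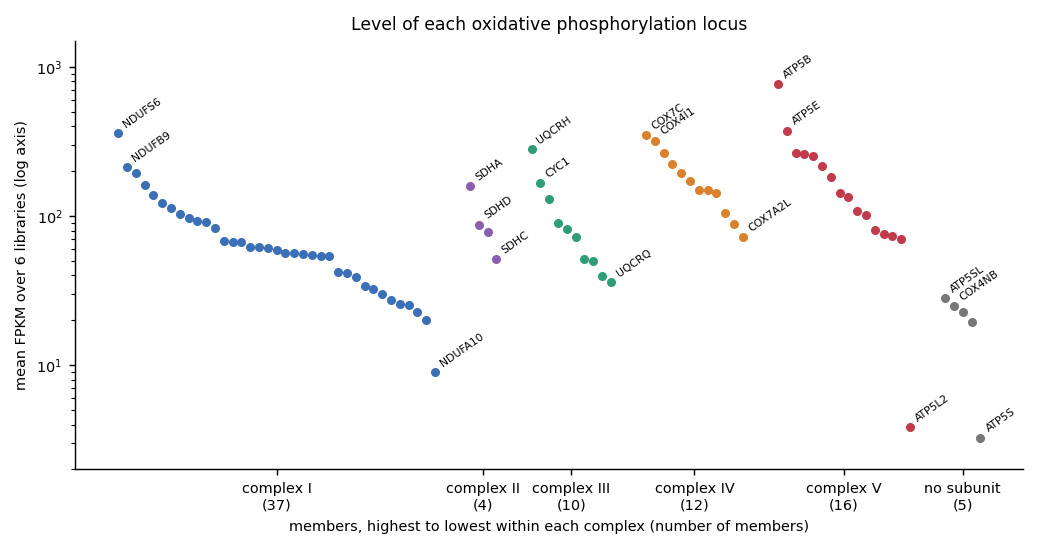
Mean FPKM over the 6 libraries (log axis) of each locus, ordered within its complex, with the number of loci in brackets. Complexes IV and V sit higher than complex I, and ATP5B at 774.0 FPKM is the top point.

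Some complex IV subunits exist in tissue-restricted forms, which were low or listed at 0 here. The cytochrome oxidase genes COX4I1 (321.3 FPKM), COX6A1 (264.6 FPKM), COX6B1 (195.0 FPKM), COX7A2 (142.4 FPKM), COX7B (148.9 FPKM) and COX8A (223.3 FPKM) were all expressed. Their counterparts COX4I2, COX6A2 (the muscle and heart form) and COX7B2 were listed at 0 in every library, and COX7A1, another muscle and heart form, averaged 0.0240 FPKM. COX8C averaged 0.0456 FPKM and NDUFA4L2, a hypoxia-induced paralog of NDUFA4, 0.0803 FPKM. COX6B2, a testis form, averaged 0.935 FPKM, just under the minimum, while the lowest loci above it were ATP5S (3.28 FPKM), ATP5L2 (3.82 FPKM) and NDUFA10 (8.97 FPKM).

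Complex V held the only call, 1 of its 16 loci, a share close to the 6.32% of all tested loci that were called lower. Its membrane ring is built from the c subunit, which ATP5G1, ATP5G2 and ATP5G3 encode with different import peptides but the same mature protein. ATP5G2 (chr12:54058943-54070512, hg19) had 249.5, 249.4 and 244.1 FPKM in miR-424 cells, against 274.0, 270.4 and 276.5 FPKM in EV cells. Every miR-424 library lay below every EV library, and the means were 247.7 ± 3.07 and 273.6 ± 3.07 FPKM (SD, n = 3 each). The log2 change was -0.14 ± 0.03 (SE; adjusted p = 0.0437 by limma with Benjamini-Hochberg). The call was kept in 5 of 17 alternative settings, with adjusted p from 0.00184 to 0.340 by limma with Benjamini-Hochberg. It was lost without EV replicate 1 (0.185), 2 (0.181) or 3 (0.207) and without miR-424 replicate 1 (0.126) or 2 (0.107), and median-of-ratios scaling moved the change to -0.07.

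ATP5G1 had 127.2, 134.2 and 124.5 FPKM in miR-424 cells, against 145.2, 134.5 and 142.0 FPKM in EV cells. The groups did not overlap, but miR-424 replicate 2 and EV replicate 2 were within 1 FPKM of each other, and the log2 change of -0.13 ± 0.05 did not pass (SE; adjusted p = 0.162 by limma with Benjamini-Hochberg). ATP5G3, which has the 8-base seed match, had 94.8, 91.7 and 118.0 FPKM in miR-424 cells, against 98.8, 100.9 and 103.4 FPKM in EV cells. Replicates 1 and 2 of miR-424 were below all EV libraries and replicate 3 was above them. Summed over the 3 genes, c ring transcripts were 477.8 ± 7.89 FPKM in miR-424 cells and 515.2 ± 8.40 FPKM in EV cells (SD, n = 3 each).

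In the catalytic head and central stalk of the ATP synthase, no locus passed the test. ATP5B had 769.0, 765.0 and 803.4 FPKM in miR-424 cells, against 767.4, 770.3 and 768.9 FPKM in EV cells, a log2 change of 0.02 with a 95% interval of -0.06 to 0.10. ATP5A1, the alpha subunit that pairs with it, and ATP5C1, the gamma subunit of the rotor, had log2 changes of 0.01 ± 0.05 and -0.00 ± 0.06 (SE). ATP5D, the delta subunit, was the most variable of them, with 69.0, 62.1 and 93.0 FPKM in miR-424 cells, against 72.0, 71.7 and 73.3 FPKM in EV cells; miR-424 replicate 3 was above and replicates 1 and 2 below the EV range. ATP5E, the epsilon subunit, shares its row with SLMO2, so its 374.8 FPKM cannot be given to either gene alone.

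In the peripheral stalk, which holds the head still, ATP5F1 had 77.9, 77.4 and 80.0 FPKM in miR-424 cells, against 73.5, 74.0 and 74.4 FPKM in EV cells. All miR-424 libraries were above all EV libraries, with a log2 change of 0.08 ± 0.03 that did not pass (SE; adjusted p = 0.192 by limma with Benjamini-Hochberg). ATP5J, another stalk subunit, had 75.3, 75.4 and 51.8 FPKM in miR-424 cells, against 77.3, 72.7 and 71.3 FPKM in EV cells, where only replicate 3 stood low. ATP5O, which joins the stalk to the head, had a log2 change of -0.03 ± 0.05 (SE). Among the small membrane subunits, the merged row ATP5J2/PTCD1 had 246.8, 242.8 and 221.1 FPKM in miR-424 cells, against 273.4, 260.6 and 272.1 FPKM in EV cells. The groups did not overlap, and the log2 change of -0.18 ± 0.05 missed the threshold (SE; adjusted p = 0.0838 by limma with Benjamini-Hochberg).

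**Figure D3:**
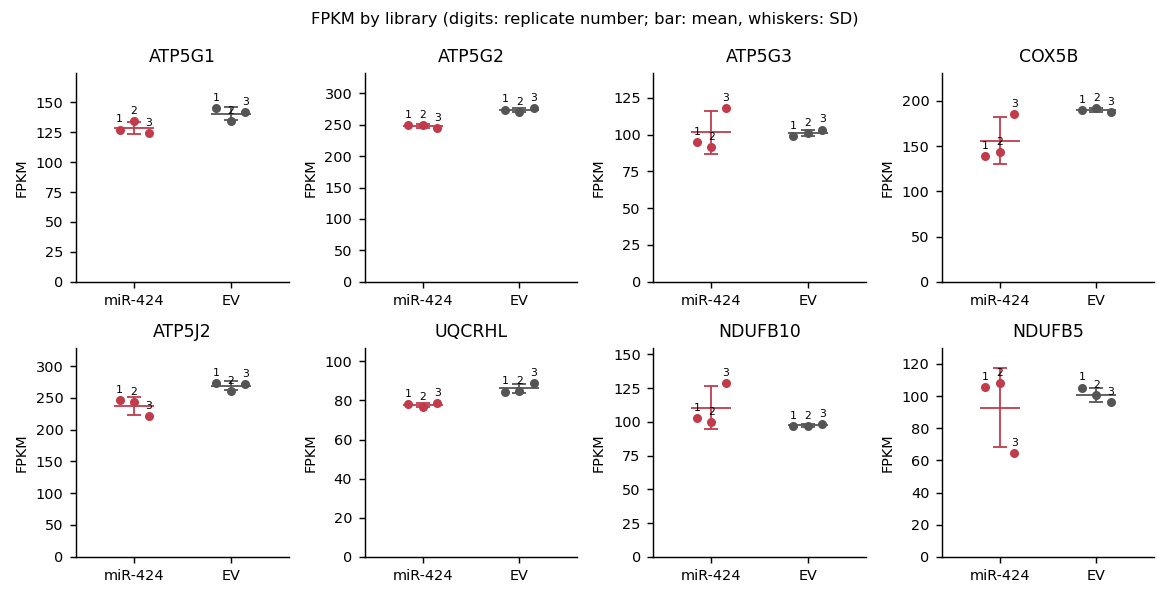
FPKM (vertical axis, from 0) of 8 loci in each library, miR-424 on the left and EV on the right; digits give the replicate, the bar the mean and whiskers the SD (n = 3). ATP5G2 and UQCRHL show 3 miR-424 points close together below EV, whereas ATP5J2, COX5B, NDUFB10, ATP5G3 and NDUFB5 show replicate 3 apart from replicates 1 and 2.

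In complex IV 0 of 12 loci passed in limma. At an unadjusted p under 0.05, 3 were lower (COX5B, COX7A2 and COX6B1), where 19.3% of all tested loci were. COX5B (chr2:98262520-98264657, hg19), a zinc-binding subunit facing the matrix, had 139.0, 143.2 and 185.7 FPKM in miR-424 cells, against 189.6, 192.1 and 187.3 FPKM in EV cells. The groups did not overlap, but only replicates 1 and 2 were far below EV, by -0.45 and -0.40 on the log2 scale, while replicate 3 differed from the EV mean by -0.03. The log2 change of -0.29 ± 0.11 was the lowest of the 84 and did not pass (SE; adjusted p = 0.157 by limma with Benjamini-Hochberg). Without miR-424 replicate 3 it was -0.42 ± 0.02, with an adjusted p of 6.2e-05 in limma.

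COX7A2 had 136.5, 140.0 and 131.1 FPKM in miR-424 cells, against 156.7, 144.2 and 146.0 FPKM in EV cells, without overlap and with a log2 change of -0.13 ± 0.05 (SE; adjusted p = 0.150 by limma with Benjamini-Hochberg). COX6B1, which bridges the monomers of the oxidase dimer, had a log2 change of -0.08 ± 0.03 and NDUFA4, first named for complex I but counted here with complex IV, -0.08 ± 0.03 (SE). Both also had non-overlapping groups. COX4I1, COX6A1 and COX7C had log2 changes of 0.03, 0.00 and -0.03, and COX7B (0.06) was the most positive of the complex. COX7A2L, a supercomplex assembly factor, had 76.7, 77.1 and 65.5 FPKM in miR-424 cells, against 70.6, 73.0 and 70.7 FPKM in EV cells, again with replicate 3 on the other side of EV from replicates 1 and 2.

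In complex III 0 of 10 loci passed in limma. At an unadjusted p under 0.05, 2 were lower (UQCRHL and UQCRFS1), a share close to the 19.3% of all tested loci. UQCRFS1, the Rieske iron-sulfur protein, had 70.5, 69.7 and 68.6 FPKM in miR-424 cells, against 75.1, 75.6 and 75.6 FPKM in EV cells. The groups were tight and apart, and the log2 change was -0.12 ± 0.03 (SE; adjusted p = 0.0862 by limma with Benjamini-Hochberg). UQCRHL is a near-identical intronless copy of the hinge subunit gene UQCRH, so reads of the pair may have been divided between them. UQCRHL had 78.0, 76.6 and 78.5 FPKM in miR-424 cells, against 84.5, 84.9 and 88.9 FPKM in EV cells, a log2 change of -0.15 ± 0.04 (SE; adjusted p = 0.0627 by limma with Benjamini-Hochberg). UQCRH itself, at 273.1 ± 9.70 FPKM in miR-424 cells and 287.1 ± 0.681 FPKM in EV cells (SD, n = 3 each), did not overlap either (log2 change -0.07 ± 0.04, SE). Cytochrome c1 (CYC1) had a log2 change of 0.07 ± 0.09, the scaffold protein UQCRC2 0.03 ± 0.03 and the small subunit UQCR10 0.05 ± 0.13 (SE).

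In complex II, whose SDHA and SDHB also act in the tricarboxylic acid cycle, 0 of 4 loci passed in limma, also at an unadjusted p under 0.05. At that unadjusted threshold 19.3% of all tested loci were lower and 4.29% higher. The changes in complex II were within -0.03 and 0.02 on the log2 scale. SDHA, the flavoprotein, had 148.8, 144.0 and 182.5 FPKM in miR-424 cells, against 156.9, 158.2 and 159.6 FPKM in EV cells, with replicate 3 above and replicates 1 and 2 below EV. SDHD, a membrane anchor, showed the reverse, with 91.7, 93.6 and 77.3 FPKM in miR-424 cells, against 89.8, 89.0 and 85.5 FPKM in EV cells. SDHB (-0.03 ± 0.03) and SDHC (0.02 ± 0.04) varied less (log2 change, SE).

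In complex I 0 of 37 loci passed in limma, also at an unadjusted p under 0.05. At that unadjusted threshold 19.3% of all tested loci were lower and 4.29% higher. The 7 core subunits, which carry flavin or iron-sulfur centres or line the quinone site, had log2 changes from -0.07 (NDUFS1) to 0.17 (NDUFS7), with a median of -0.01. NDUFS7 had 68.1, 65.8 and 84.4 FPKM in miR-424 cells, against 68.5, 63.0 and 61.3 FPKM in EV cells, and the groups overlapped. The 30 accessory subunits, which surround the core, had log2 changes from -0.21 (NDUFB6) to 0.17 (NDUFB10). All 3 miR-424 libraries lay below EV for 3 of the 30, NDUFA1, NDUFB3 and NDUFB6, against 26.9% of all tested loci. NDUFB10 had 102.9, 99.8 and 128.8 FPKM in miR-424 cells, against 96.8, 96.9 and 98.4 FPKM in EV cells. Every miR-424 library was above EV, most of all replicate 3, and the log2 change was 0.17 ± 0.09 (SE; adjusted p = 0.333 by limma with Benjamini-Hochberg).

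NDUFB6 had 55.6, 57.3 and 44.2 FPKM in miR-424 cells, against 63.6, 59.2 and 58.8 FPKM in EV cells (log2 change -0.21 ± 0.10, SE; adjusted p = 0.256 by limma with Benjamini-Hochberg). NDUFB5 had 105.8, 108.2 and 64.4 FPKM in miR-424 cells, against 105.3, 100.7 and 96.3 FPKM in EV cells. Only replicate 3 was low, and the 95% interval of its log2 change, -0.61 to 0.30, was the widest of the 84. The most abundant complex I locus, NDUFS6, had 336.6, 323.6 and 448.1 FPKM in miR-424 cells, against 349.0, 359.9 and 356.5 FPKM in EV cells, and here replicate 3 alone was high. NDUFB9 (214.7 FPKM) and NDUFB2 (195.7 FPKM) were next in level, with log2 changes of 0.01 ± 0.05 and -0.07 ± 0.06 (SE). NDUFC2 shares its row with KCTD14, and had a log2 change of -0.11 ± 0.08 (SE).

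The 5 loci that encode no subunit were ATP5S, ATP5SL, COX4NB and the pseudogenes ATP5EP2 and UQCRBP1. They had log2 changes from -0.13 (ATP5EP2) to -0.00 (ATP5SL), and none passed the test in limma. At an unadjusted p under 0.05, 1 of the 5 was lower, ATP5EP2, where 19.3% of all tested loci were. ATP5EP2 is a copy of ATP5E and UQCRBP1 of UQCRB, and reads may be shared within each pair.

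Replicate 3 of miR-424 stood apart from the other miR-424 libraries in this family. The median distance of replicate 3 from the mean of replicates 1 and 2 was 0.18 on the log2 scale, beside 0.04 between replicates 1 and 2; over all tested loci these were 0.14 and 0.04. In 22 of the 84 loci (26.2%) replicates 1 and 2 were below every EV library and replicate 3 above every one, against 5.32% of all tested loci. The reverse order held for 6 loci (7.14%), among them NDUFB5, SDHD and COX7A2L, against 17.1% of all tested loci. Replicate 3 was above both other miR-424 libraries in 52 loci (61.9%), while 26.7% of all tested loci had it so.

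Against the EV mean, the median of the 84 loci was -0.05, -0.07 and 0.02 on the log2 scale in miR-424 replicates 1, 2 and 3, beside -0.02, -0.02 and -0.11 over all tested loci. Complex I gave -0.02, -0.05 and 0.11 and complex III -0.06, -0.12 and 0.09. Complex II (0.01, -0.00 and -0.03) and complex IV (-0.07, -0.08 and -0.02) spread less. Complex V (-0.02, -0.04 and -0.08) had replicate 3 lowest.

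**Figure D4:**
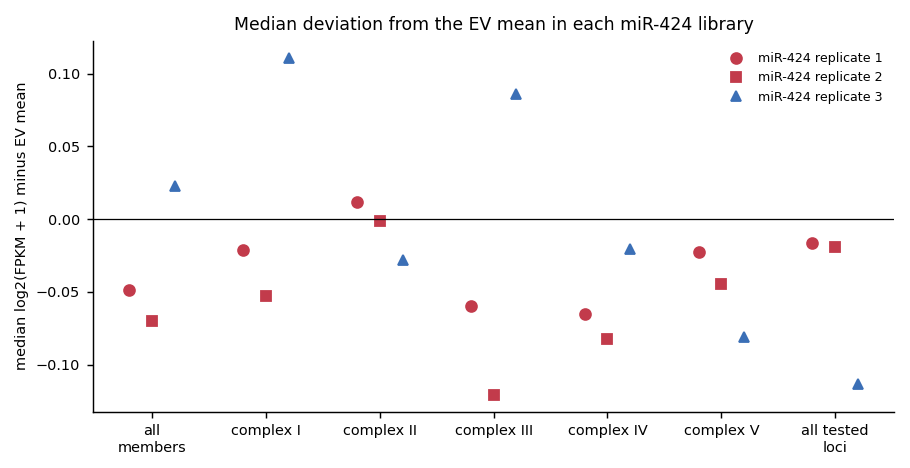
Median log2(FPKM + 1) minus the EV mean (vertical axis) in each miR-424 library for all 84 loci, each complex and all tested loci. Replicate 3 (triangles) is above the others for complexes I (0.11) and III (0.09) and below them over all tested loci (-0.11).

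These deviations moved with base composition. Transcript GC content was known for 81 loci. In the 19 with 55% GC or more, the median deviation from the EV mean was -0.07, -0.13 and 0.17 on the log2 scale in miR-424 replicates 1, 2 and 3. In the 20 with under 45% GC it was -0.01, -0.02 and -0.05. Over all tested loci it was -0.07, -0.10 and -0.05 at 55% GC or more. Under 45% GC it was 0.05, 0.06 and -0.18 over all tested loci. At 55% GC or more, replicate 3 was thus above EV in the family but below EV over all tested loci. Across the 81 loci, Spearman's rho of the deviation with GC was -0.28, -0.42 and 0.45 in the 3 libraries. Across 11173 tested loci it was -0.42, -0.51 and 0.31. With transcript length, rho was 0.189, 0.209 and -0.126 across the 81 loci, and 0.245, 0.253 and -0.137 across the 11173. These values describe loci that share a library and carry no p. GC-rich loci such as ATP5D (69.5% GC), NDUFS7 (66.5%) and NDUFB10 (59.7%) were high in replicate 3. GC-poor ones such as NDUFB5 (39.9%) and NDUFA5 (36.4%) were low in it. Other loci went the other way: ATP5G2 (58.2%) and COX6B1 (55.8%) were below the EV mean in it, by -0.16 and -0.11. COX7B (41.9%) and ATP5L (42.0%) were above it, by 0.19 and 0.16. The part of base composition in the group difference was not tested beyond the fit with trends in GC and length removed. That fit called 2 loci lower, UQCRHL and UQCRFS1 (9.51% of loci in that fit were called lower), and 2 higher, NDUFB10 and NDUFS7 (2.65%).

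**Figure D5:**
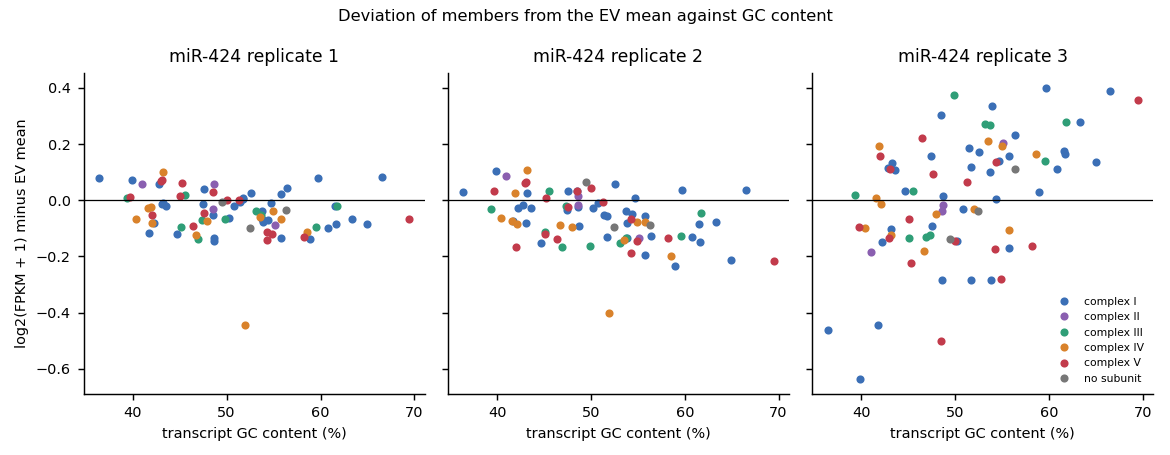
Deviation of log2(FPKM + 1) from the EV mean (vertical axis) against transcript GC content in percent (horizontal axis) for 81 loci in each miR-424 library, coloured by complex. The cloud slopes down in replicates 1 and 2 (Spearman's rho -0.28 and -0.42) and up in replicate 3 (0.45).

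Without miR-424 replicate 3, the count of loci called lower was 27 of 84 (22.2% of all tested loci were then called lower) and of those called higher 2 (14.9%). The 27 were 8 loci of complex I, 1 of complex II, 4 of complex III, 5 of complex IV, 6 of complex V and 3 that encode no subunit; the 2 were COX7A2L and ATP5F1. COX5B at -0.42 was the lowest, and 13 of the 29 calls were also made when replicate 3 was left out and trends in GC and length were removed. That last fit, chosen after the data were seen, called 16 of 81 lower (18.4% of loci in it) and 5 higher (11.1%). Keeping all libraries but weighting each by its fit (array weights) called 17 of 84 lower (19.9% of all tested loci) and 1 higher, ATP5F1 (10.9%).

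Promoter letters were compared because the family's promoters are known for shared factors. Of the 79 loci assigned to a complex, 63 matched a RefSeq promoter window (GRCh38.p14, 250 bases before to 50 after the start). The NRF1 letters GCGCANGCG were found on either strand in 21 of the 63 (33.3%), against 15.9% of the promoters of tested loci and 8.05% of all 27305. The ETS letters CCGGAAG were found in 19 (30.2%, against 21.0% and 10.7%) and the YY1 letters AAGATGGC in 11 (17.5%, against 6.0% and 3.03%). N stands for any base, and the ETS and YY1 letters can overlap by AAG. Of the 63 promoters, 24 held none of the motifs and 1 held all. A match is one of letters only.

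Windows around the NRF1 letters are shown for 6 loci that cover the range of estimates: the called locus, UQCRFS1 and NDUFS7, which the fit with trends removed called lower and higher, and 3 with estimates near 0. Capitals mark the match, read 5′ to 3′ on the strand of the gene.
ATP5G2 (chr12:53676106-53676134, minus strand): gcccgggtcaCGCATGCGCtgagccttcc
NDUFS7 (chr19:1383823-1383851, plus strand): ttccggtttcCGCATGCGCtccgagccgc
UQCRFS1 (chr19:29213163-29213191, minus strand): cgcctcctcgCGCCTGCGCcgtggttgga
SDHD (chr11:112086753-112086781, plus strand): agctgtgtttGCGCATGCGcgacgggtgt
COX6A1 (chr12:120437884-120437912, plus strand): ggagggcacaCGCATGCGCacgaaggaaa
ATP5C1 (chr10:7788145-7788173, plus strand): gggagcttcgGCGCATGCGcgctgaggcc

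Loci with these letters stood on both sides of 0. ATP5G2 and UQCRFS1 had log2 changes of -0.14 and -0.12, and NDUFS7 0.17. SDHD, COX6A1 and ATP5C1 lay between -0.01 and 0.00. The NRF1 gene itself had 9.66, 7.96 and 9.57 FPKM in miR-424 cells, against 8.87, 9.21 and 9.44 FPKM in EV cells, and the groups overlapped.

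Few genes that build or feed the complexes passed the test. Of 13 complex I assembly factors, 30 assembly factors of complexes II to V and 16 electron carriers and small ATP synthase proteins, 0 rose and 0 fell in limma (6.32% of all tested loci fell and 1.24% rose). At an unadjusted p under 0.05, 1, 5 and 3 of them were lower and 0 higher, against 19.3% and 4.29% of all tested loci. The median log2 changes were -0.02, -0.06 and -0.04. Without miR-424 replicate 3 the falls and rises were 1 and 1, 9 and 2, and 3 and 0, where 22.2% of all tested loci fell and 14.9% rose, and with median-of-ratios scaling the medians were 0.04, 0.00 and 0.03. Examples are the assembly factors TIMMDC1 (-0.08 ± 0.04) and NDUFAF2 (-0.08 ± 0.11), the copper chaperone COX17 (-0.09 ± 0.05), the mitochondrial mRNA-binding protein LRPPRC (0.02 ± 0.06) and the ATP synthase inhibitor ATPIF1 (-0.04 ± 0.04) (log2 change, SE). Of 17 tested regulators of mitochondrial biogenesis, 1 fell and 0 rose, a share close to the 6.32% of all tested loci that fell. The list held 18, and PPARGC1A, at a mean of 0.952 FPKM, was under the minimum and not tested. It had 0.889, 0.864 and 0.682 FPKM in miR-424 cells, against 1.10, 1.06 and 1.12 FPKM in EV cells. PPRC1, a coactivator related to PGC-1, had 17.3, 17.1 and 16.4 FPKM in miR-424 cells, against 19.1, 19.3 and 19.2 FPKM in EV cells, with no overlap and a log2 change of -0.17 ± 0.04 (SE; adjusted p = 0.0462 by limma with Benjamini-Hochberg). Without EV replicate 1, 2 or 3 or miR-424 replicate 1 or 2 this call was lost (0.104 to 0.214 in limma). It was also lost with median-of-ratios scaling (0.132), quantile normalization (0.110), trends in GC and length removed (0.0542), a replicate block (0.126) and both of these together (0.0847). Each of the scalings instead called 1 regulator higher, TFB1M, and without miR-424 replicate 3 there were 2 falls and 3 rises in the list. TFAM, which packages and transcribes mitochondrial DNA, had a log2 change of -0.01 ± 0.13 (SE).

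Of 13 tricarboxylic acid cycle genes, 1 fell and 0 rose, again close to the 6.32% of all tested loci that fell. SUCLA2, a succinyl-CoA ligase subunit, had 35.1, 34.4 and 31.7 FPKM in miR-424 cells, against 40.5, 39.0 and 38.8 FPKM in EV cells. The groups did not overlap, with a log2 change of -0.22 ± 0.05 (SE; adjusted p = 0.0449 by limma with Benjamini-Hochberg). This call too was lost when EV replicate 1, 2 or 3 or miR-424 replicate 1 or 2 was left out (0.0789 to 0.194 in limma). It was lost as well with no filter on low values (0.0562), median-of-ratios scaling (0.0506), a constant prior variance (0.0501) and a replicate block (0.0781). Without miR-424 replicate 3 the list had 1 fall and 1 rise.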

How the data were processed

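RNA was measured in 6 libraries of MCF12A cells, 3 with miR-424 and 3 with EV. The authors deposited 1 table of FPKM per locus. Per the submitters' processing notes, the tools included Cuffdiff, Cufflinks (version 1.3.0) and TopHat (version 1.4.1), and the build was hg19, or GRCh37. Some rows name several genes, whose values cannot be separated. The table used holds neither counts nor depth, so FPKM hides the counting error; the FPKM sums were 409776 to 424564 per library. Whether FPKM was summed over isoforms, and how reads shared by copies were divided, is not stated in the notes.

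Values were read as log2(FPKM + 1), loci averaging 1 FPKM or more were kept (11574 of 24294), and the groups were compared with limma 3.58.1 (R 4.3.3, moderated variance with a trend, two-sided, Benjamini-Hochberg over all tested loci, threshold 0.05). The pseudocount of 1 understates changes of low loci. The scripts were checked on simulated data. The 95% intervals used 6.77 degrees of freedom from limma. GC content, length and 3′ UTRs came from GENCODE 29 transcripts matched by RefSeq accession (81 of 84 loci). Named loci were every called locus, the 3 highest and the 2 most positive and 2 most negative of each complex, paralogs, merged or misnamed rows and the loci nearest the minimum; others named were chosen after their values were seen. The loci and the gene lists were chosen with earlier results of these data known. Alternatives were other pseudocounts, filters, scalings, variance models, removal of loess trends in GC and length, a replicate block and leaving out each library.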

Additional observations from a re-analysis of the deposited data

How the results depend on the processing

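Against 1 locus of the 84 called lower, 0 were with no filter on low values, quantile normalization, median-of-ratios scaling, a constant prior variance, a replicate block or a replicate block with GC and length trends removed; 2 were with those trends removed, 17 with array weights, and 16 without miR-424 replicate 3 with trends removed, a setting chosen after seeing the data. Leaving out 1 library gave 0 to 27. Against 0 called higher, array weights gave 1, trends removed 2, the block with trends removed 1, the added setting 5 and leaving out 1 library 0 to 2. The median change of the 84 (-0.0254) was 0.0430 with median-of-ratios scaling. Of all tested loci, 731 were lower and 144 higher. These counts became 447 and 319 under quantile normalization, 436 and 344 under median-of-ratios scaling, 2307 and 1256 with array weights, 270 and 79 with the replicate block, and 2052 and 1244 in the added setting. A minimum of 5 FPKM gave 468 lower, and trends removed gave 296 higher. Leaving out 1 library gave 77 to 2574 lower and 31 to 1728 higher, the highest in each case without miR-424 replicate 3.

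Without miR-424 replicate 3, 3 uncalled loci were called with the opposite sign: NDUFS6 at -0.105 (range over left-out libraries -0.105 to 0.129), UQCR10 at -0.114 (-0.114 to 0.153) and ATP5D at -0.142 (-0.142 to 0.145). The causes of these differences were not tested. Direction was compared only where a test was passed. Over all settings 37 of the 84 loci were called at least once. The matching share of all tested loci was not counted, so this number cannot be read as particular to the family. The labels link the libraries of the groups by replicate number only. Deviations of same-numbered libraries correlated at 0.0509, 0.152 and 0.127, and those of differently numbered ones at -0.194 to 0.0613. EV replicates 2 and 3 correlated best with the same-numbered miR-424 library, and EV replicate 1 with miR-424 replicate 2 (0.0613). Whether the replicates were paired was not settled. Without counts, a difference below the spread of 3 libraries was not detectable here.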
